A study of Mus musculus with 8 samples.

Results

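Some transcripts carry N6-methyladenosine (m6A) at several places along a single long exon, and in a peak list such a stretch appears as 1 enriched interval with several summits. Intervals with 3 or more summits, called clusters here, were examined in the m6A-RIP-seq lists of mouse primary vascular smooth muscle cells (VSMCs). The clusters were chosen by the number of summits that the peak caller had placed in an interval, in each list on its own, and the chosen intervals were then merged over the lists wherever they shared at least 1 bp. This gave 1227 cluster regions. Merging every interval of the lists gave 11361 regions.

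VSMCs are the contractile cells of the artery wall. They had been grown out of the descending aorta of C57BL/6J mice aged 8 to 12 weeks and transduced with lentivirus. The control virus (shCTR) expressed a hairpin against a plant microRNA sequence from a vector that also encodes GFP, the other virus a hairpin against Mettl14 (shMettl14), and the cells were collected 48 hours after the medium was changed. Each hairpin had 2 replicates (A and B), and each replicate had an IP sample, whose methylated fragments were pulled down with an anti-m6A antibody, and an input sample. The 4 peak lists belong to the 4 IP samples, and the inputs entered as the background of the caller. Values are given below in the order shCTR A, shCTR B, shMettl14 A, shMettl14 B wherever 4 follow each other. Nothing stated whether A and B were separate cultures, so all tests measure the spread between these lists, which may be technical.

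METTL14 forms the m6A writer with METTL3, and the complex methylates adenosines in the sequence DRACH (where D stands for any base but C, R for a purine and H for any base but G), of which GGACT is the best known form. In mammalian mRNA the mark is concentrated in long internal exons, in the last exon and around stop codons, and it is sparse near splice junctions. Readers of the YTH family bind it and shorten the life of many of the transcripts that carry it. An antibody peak has the width of an RNA fragment, so a summit marks the centre of a methylated stretch and not a single base, and neighbouring methylated adenosines closer than a fragment merge into 1 summit.

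The sequence under 3 of the regions with the most summits shows what a cluster consists of, and these are shown first because they differ in kind. Plin4, which encodes a coat protein of lipid droplets, holds a tandem repeat, and 4 of its repeat units follow. Ahnak, which encodes a giant scaffold protein, repeats a longer module imperfectly, and its 7 summit sites found in all 4 lists follow the Plin4 units. Tnrc6c, which encodes a GW182 protein of the microRNA silencing complex, has no such repeat, and its 5 summit sites found in all 4 lists come last. Each sequence is the transcript strand of GRCm38, 5′ to 3′, and capitals mark every DRACH.
Plin4 unit 1, chr17:56106960-56107058: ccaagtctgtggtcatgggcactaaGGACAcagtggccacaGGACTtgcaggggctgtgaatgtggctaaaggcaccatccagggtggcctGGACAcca
Plin4 unit 2, chr17:56106861-56106959: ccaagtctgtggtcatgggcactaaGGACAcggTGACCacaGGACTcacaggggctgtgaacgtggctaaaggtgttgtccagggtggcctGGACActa
Plin4 unit 3, chr17:56106762-56106860: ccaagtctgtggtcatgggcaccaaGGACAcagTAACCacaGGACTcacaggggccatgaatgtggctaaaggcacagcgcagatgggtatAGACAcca
Plin4 unit in the annotated intron, chr17:56105970-56106068: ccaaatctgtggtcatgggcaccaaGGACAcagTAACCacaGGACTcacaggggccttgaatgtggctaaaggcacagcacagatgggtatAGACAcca
Ahnak site 1, chr19:9006950-9007030: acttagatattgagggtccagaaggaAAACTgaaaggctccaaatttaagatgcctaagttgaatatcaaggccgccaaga
Ahnak site 2, chr19:9007216-9007296: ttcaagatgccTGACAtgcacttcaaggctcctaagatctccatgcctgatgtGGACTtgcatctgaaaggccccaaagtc
Ahnak site 3, chr19:9007451-9007531: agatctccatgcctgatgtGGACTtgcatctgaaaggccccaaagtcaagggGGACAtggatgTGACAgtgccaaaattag
Ahnak site 4, chr19:9007621-9007701: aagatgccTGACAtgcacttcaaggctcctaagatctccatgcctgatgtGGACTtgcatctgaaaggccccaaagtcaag
Ahnak site 5, chr19:9007846-9007926: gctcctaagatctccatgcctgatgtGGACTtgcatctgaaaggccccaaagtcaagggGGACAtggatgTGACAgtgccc
Ahnak site 6, chr19:9008428-9008508: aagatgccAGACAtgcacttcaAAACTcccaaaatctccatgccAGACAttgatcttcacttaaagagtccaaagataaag
Ahnak site 7, chr19:9008966-9009046: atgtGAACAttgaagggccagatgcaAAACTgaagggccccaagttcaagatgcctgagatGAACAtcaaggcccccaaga
Tnrc6c site 1, chr11:117721158-117721238: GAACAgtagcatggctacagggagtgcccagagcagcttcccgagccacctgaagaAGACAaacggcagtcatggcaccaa
Tnrc6c site 2, chr11:117721925-117722005: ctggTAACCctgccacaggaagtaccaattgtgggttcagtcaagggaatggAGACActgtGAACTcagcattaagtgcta
Tnrc6c site 3, chr11:117722289-117722369: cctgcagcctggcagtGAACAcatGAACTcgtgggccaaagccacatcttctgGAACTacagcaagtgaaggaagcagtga
Tnrc6c site 4, chr11:117722897-117722977: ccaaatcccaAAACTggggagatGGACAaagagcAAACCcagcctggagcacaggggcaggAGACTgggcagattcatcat
Tnrc6c site 5, chr11:117723336-117723416: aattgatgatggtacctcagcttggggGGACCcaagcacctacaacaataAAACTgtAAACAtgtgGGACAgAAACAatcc

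The 4 Plin4 units each held 1 GGACT. Sites 2 to 5 of Ahnak held GGACT within the same stretch of letters, while sites 1, 6 and 7 of Ahnak and the 5 sites of Tnrc6c held DRACH in other forms and no GGACT. A match shows only that the letters are present in the window.

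Clusters were a minority of each list. The lists held 522, 265, 1065 and 438 clusters among 8535, 7046, 9061 and 7031 intervals. The clusters carried 1814, 923, 3990 and 1542 summits, which was 16.3%, 10.7%, 29.2% and 16.7% of the summits of the list. shMettl14 A stood above the other lists on both measures, shCTR B below them, and shCTR A and shMettl14 B lay close together. Next to the threshold, 365, 185, 639 and 297 clusters had exactly 3 summits, and 1331, 951, 1689 and 1121 intervals had 2 summits and were left out. The fullest interval of a list held 10, 9, 17 and 15 summits.

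The question of the study was how m6A changed after Mettl14 knockdown, and clusters were more numerous in the shMettl14 lists only on average. The shCTR lists had a mean of 394 ± 182 clusters (SD, n = 2) and the shMettl14 lists one of 752 ± 443 (SD, n = 2), a ratio of 1.91. The shMettl14 lists differed from each other by more than the group means did, and p was 0.667 by the two-sided exact permutation test over the 4 lists, in which 0.333 is the smallest value that can arise. The share of summits in clusters differed by 9.46 percentage points, from 13.5% ± 3.95 (SD, n = 2) to 22.9% ± 8.85 (SD, n = 2), with an exact permutation p of 0.333. Among lists of the same letter shMettl14 had more clusters than shCTR, and A had more than B under each hairpin. Both values depended on the lists used. Without shMettl14 A the ratio was 1.11 and the difference 3.20 points, and without shMettl14 B they were 2.71 and 15.7 points. Leaving out shCTR A gave a ratio of 2.84, and leaving out shCTR B one of 1.44.

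Summits lay closer together in the shMettl14 lists, whose shortest intervals were also shorter. The shortest interval of a list, which MACS2 sets by default to the fragment length it assumes (the options used were not given), measured 141, 170, 97 and 112 bp. The median distance between neighbouring summits of a cluster ranked the lists in the same way, at 245, 298, 182 and 203 bp. The groups did not overlap on either measure. The mean of the medians was 271 ± 37.1 bp (SD, n = 2) under shCTR and 192 ± 14.5 bp (SD, n = 2) under shMettl14, a difference of -79 bp with an exact permutation p of 0.333. Divided by the shortest interval of its list, the median distance was 1.74, 1.75, 1.88 and 1.81. Hairpin and shortest interval cannot be told apart in these lists.

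**Figure D1:**
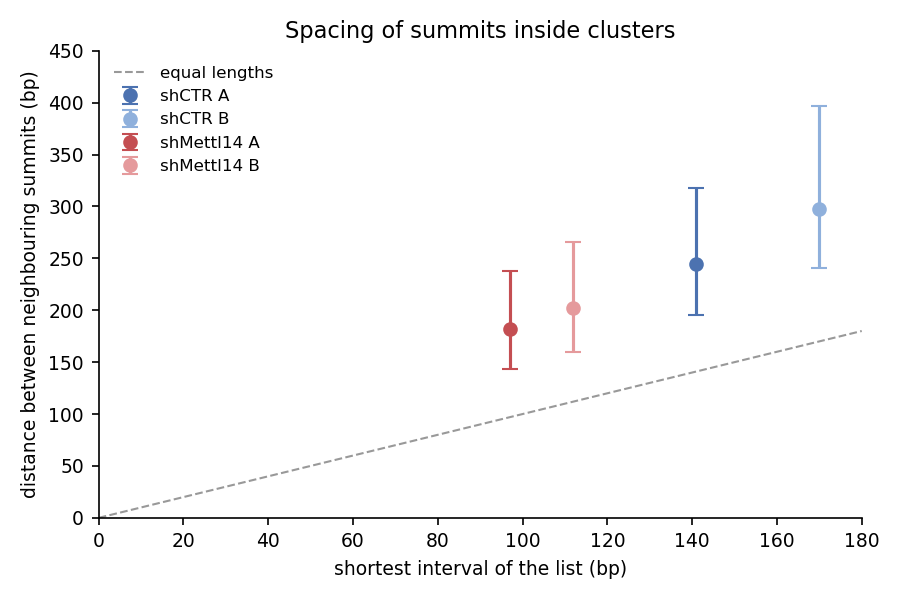
Median distance between neighbouring summits inside clusters (vertical axis, bp) against the shortest interval of the list (horizontal axis, bp), with bars from the lower to the upper quartile of the distances. The median lay at 1.74 to 1.88 times the shortest interval in the 4 lists, and the dashed line marks equal lengths.

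The comparison was therefore repeated with only those summits that lay a minimum distance apart. At 150 bp there were 463, 254, 709 and 322 clusters, with 14.7%, 10.3%, 20.5% and 12.7% of the summits, and the share was still 4.12 points higher under shMettl14 (exact permutation p = 0.667). At 200 bp, a distance chosen after the data had been seen, there were 330, 221, 395 and 183. This distance is near the median spacing of the shMettl14 lists and below that of the shCTR lists, so thinning bears more on shMettl14. At this wider distance the share of summits in clusters was 10.8%, 9.07%, 12.3% and 7.61%, and the mean difference was -0.0255 percentage points. The excess in share of the shMettl14 lists was thus smaller at 150 bp and absent at 200 bp. It was kept, at 8.63 points, with the same number of top summits by −log10 p taken from each list, and at 9.61 points with only summits of −log10 q of at least 4.

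**Figure D2:**
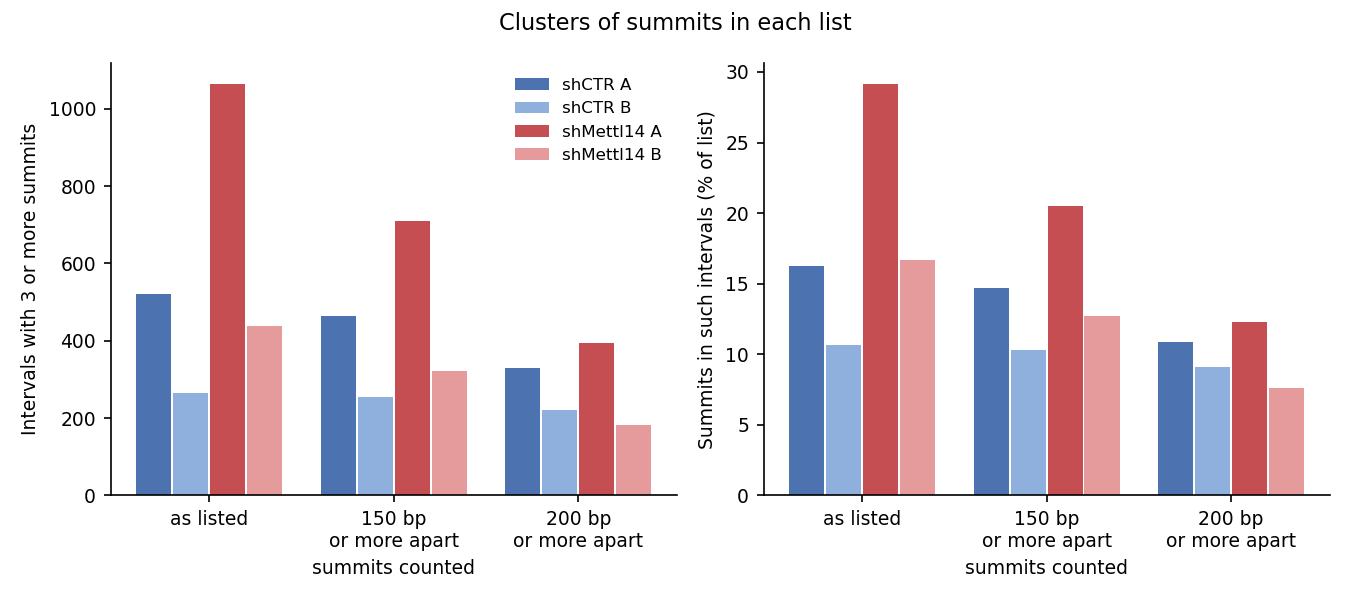
Number of intervals with 3 or more summits (left) and share of all summits of the list that lie in them (right, %), with all summits counted and after thinning to summits at least 150 bp and 200 bp apart. Bars are single lists, so there is no error bar. The 1065 clusters of shMettl14 A became 395 at 200 bp, while the 265 of shCTR B became 221.

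Most cluster regions reached 3 summits in a single list. Of the 1227 regions, 637 (51.9%) held 3 or more summits in 1 interval in exactly 1 list, 275 in exactly 2 lists, 177 in exactly 3 and 138 (11.2%) in all 4. Of the 637, 493 came from shMettl14 A, 83 from shCTR A, 35 from shMettl14 B and 26 from shCTR B. Without shCTR B, the list with the fewest clusters, 253 regions reached 3 summits in every remaining list. The difference lay in the count of summits and not in the presence of a peak, since 1197 regions (97.6%) had at least 1 summit in each of the 4 lists, and 579 had an interval with 2 or more summits in each.

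**Figure D3:**
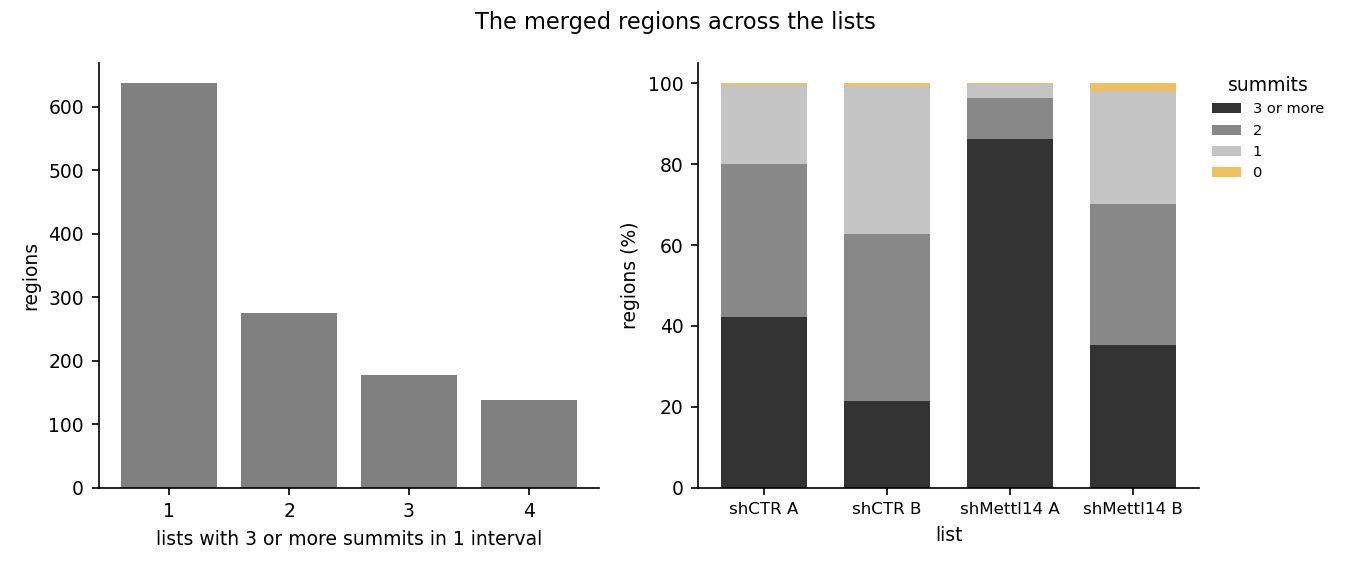
Left, number of the 1227 cluster regions by the number of lists in which an interval of the region held 3 or more summits. Right, share of these regions (%) by the number of summits in the fullest interval of the region in each list. shMettl14 A reached 3 or more summits in 86.2% of the regions, shCTR B in 21.4%, and at most 2.04% of the regions had no summit in a list.

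Nearly all clusters of one list were matched by a peak of another. Between 97.9% and 100% of the clusters of a list overlapped a peak of any other list by at least 1 bp, whereas 52.7% to 84.2% of the intervals with 1 summit did. Clusters cover more bases and hold more fragments, and the part of either in this difference was not tested. A cluster of shMettl14 B overlapped a cluster of shMettl14 A in 88.4% of cases, and a cluster of shMettl14 A overlapped one of shMettl14 B in 36.0%. Of the clusters of shCTR B, 76.6% overlapped a cluster of shCTR A and 84.5% one of shMettl14 A.

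The positions of summits inside the cluster regions were compared between the lists. The agreement that summits placed at random at this density would reach was not computed. Over the regions clustered in both lists of a pair, the share of summits with a summit of the other list within 50 bp was 76.9% for shCTR A with shCTR B and 80.3% for shMettl14 A with shMettl14 B. Between the hairpins it was 71.5% for shCTR A with shMettl14 A, 75.7% for shCTR A with shMettl14 B, 56.5% for shCTR B with shMettl14 A and 66.6% for shCTR B with shMettl14 B. The mean over the pairs was 71.2% ± 8.65 (SD over 6 pairs, which share lists). Both pairs of one hairpin exceeded the pairs across hairpins.

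The mismatch had a direction. Among summits matched as nearest neighbours within 100 bp, those of shMettl14 A lay a median of 20 nt further toward the 3′ end of the transcript than those of shCTR A, and those of shMettl14 B 13 nt further. Against shCTR B the shifts were 29 nt and 27 nt. Within a hairpin, shCTR B lay 14 nt to the 5′ side of shCTR A, and shMettl14 B 7 nt to the 5′ side of shMettl14 A. Genes on the plus and on the minus strand gave the same shifts to within 2 nt, so the offset ran along the transcript and not along the chromosome. Ordered from 5′ to 3′ the lists were shCTR B, shCTR A, shMettl14 B and shMettl14 A, which is also their order from the longest to the shortest of the shortest intervals. With a tolerance of 100 bp the mean agreement was 84.7% ± 2.17 (SD over 6 pairs).

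The 138 regions with 3 or more summits in all 4 lists were used to follow single positions across the lists, and their choice favours sites that recur. Joining their summits wherever neighbours lay within 50 bp gave 949 sites, of which 392 (41.3%) were found in all 4 lists, 148 in 3, 152 in 2 and 257 in 1. A region held a median of 3 sites found in all 4 lists, 87 regions held 3 or more, 1 region held none and the richest held 8. Neighbouring sites of this kind lay a median of 350 bp apart, with quartiles of 254 and 466 bp. This is wider than the median distance between summits in any single list.

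The region with the most summits lay in Plin4 (ENSMUSG00000002831.13, chr17:56103817-56107355, minus strand, coding sequence). Its summits numbered 10, 9, 17 and 15, and 8 sites were found in all 4 lists. It was the fullest interval of 3 lists and tied with a Plec region at 9 summits in shCTR B. Its highest fold enrichment, the ratio of IP pileup to background at a summit, was 26.0, 23.5, 25.7 and 21.0, at the 99.5, 98.7, 99.8 and 97.5 percentile of the list. The pileup there was modest, with 47, 36, 45 and 27 fragments. The region was a tandem array, in which 73.0% of the letters matched those 99 nt further on and 79.6% those 990 nt further on. Of the 17 GGACT in the region, 15 stood at the same position of the 99-nt unit. Units 1 and 2 above differed at 11 of 99 letters, and unit 3 differed at 3 letters from the unit in the annotated intron. That intron, between exons 5 and 6 of the 9 exons of the chosen transcript, is 594 nt long, the length of 6 units, and 3, 1, 4 and 4 summits lay in it. Only uniquely mapped reads were kept upstream, so the placement of reads among near-identical units is uncertain, and its part in the summit count was not tested.

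**Figure D4:**
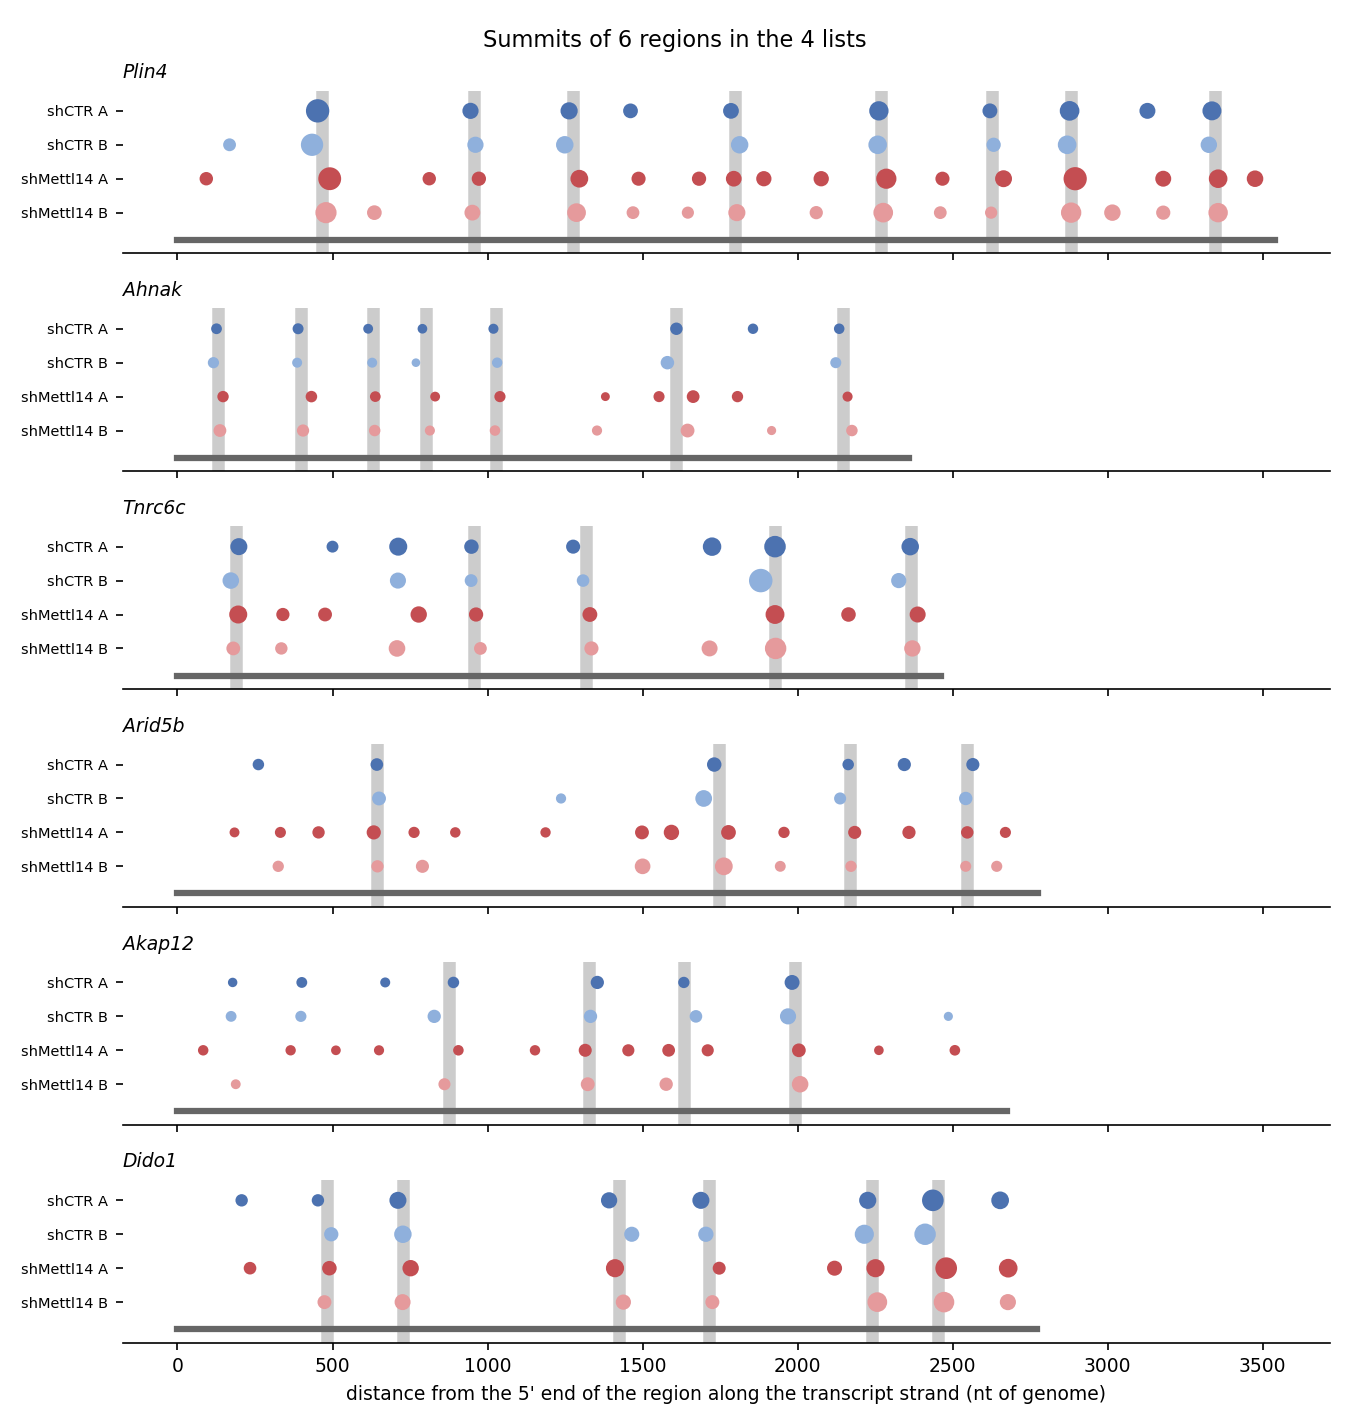
Summits of 6 regions in the 4 lists along the transcript strand, from the 5′ end of the region (horizontal axis, nt of genome). The area of a point is proportional to fold enrichment, grey bars mark the sites found in all 4 lists, and the dark line is the extent of the region. The 8 Plin4 sites and the 7 Ahnak sites recur in each list, and in Arid5b shMettl14 A has 15 summits where the shCTR lists have 6 and 5.

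Plec, which encodes the cytoskeletal linker plectin, held the next fullest region, in its last exon (ENSMUSG00000022565.15, chr15:76174860-76178321, exon 33, 7412 nt). It had 10, 9, 13 and 9 summits and 7 sites in all 4 lists. The exon before it (chr15:76178549-76181499, exon 32, 3381 nt) had 9, 8, 12 and 6 summits, but only 2 sites in all 4 lists. Ahnak (ENSMUSG00000069833.13, chr19:9006859-9009218, exon 5, 17498 nt) had 8, 7, 10 and 9 summits and 7 sites in all 4 lists. Its fold enrichment was low, with a highest value of 6.17, 7.49, 6.57 and 7.91.

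Arid5b, a DNA-binding partner of a histone demethylase (ENSMUSG00000019947.10, chr10:68095970-68098744, exon 10), differed most between lists among the fullest regions. It had 6, 5, 15 and 9 summits and 4 sites in all 4 lists, 3 in coding sequence and the most 3′ one in the 3′ UTR. Both shMettl14 lists lay above both shCTR lists. Akap12, a scaffold for protein kinase A (ENSMUSG00000038587.9, chr10:4354708-4357381, exon 3), had 7, 7, 13 and 5 summits, so that the shMettl14 lists lay on either side of the shCTR lists. In Gvin1, a large interferon-induced GTPase (ENSMUSG00000045868.12, chr7:106157918-106160140, exon 4), there were 8, 7, 9 and 8 summits. Gvin1 belongs to a multigene family with near copies, and its read placement is uncertain for that reason.

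Tnrc6c (ENSMUSG00000025571.13, chr11:117721010-117723471, exon 5 of 22) had 8, 6, 9 and 8 summits with a highest fold enrichment of 21.8, 26.4, 16.2 and 21.5. Fat1, an atypical cadherin (ENSMUSG00000070047.14, chr8:44950114-44952953, exon 1), had 7, 6, 11 and 7. Dido1, a chromatin-associated protein (ENSMUSG00000038914.15, chr2:180659211-180661982, exon 16), had 8, 6, 9 and 7. Ankrd50, an ankyrin repeat protein of endosomal recycling (ENSMUSG00000044864.16, chr3:38455026-38457430), had 6, 7, 10 and 7, and lay mostly in an annotated exon that the transcript used for this gene lacks. In these 4 regions the site number in all 4 lists was 5, 5, 6 and 6, and shMettl14 A held the highest count of each.

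Tandem repetition like that of Plin4 was not general. For each region over 1 gene, the transcript-strand sequence was compared with itself at every offset of at least 20 nt that left 300 letters to compare, a description chosen after Plin4 had been seen. The median of the best match was 32.5% over 1124 regions. In 35 regions it was 50% or more, and 8 of these were among the 131 compared regions with 3 or more summits in all 4 lists. The highest values lay in Ahnak2 (99.7% at an offset of 1032 nt) and Ahnak (97.1% at 2124 nt), and the Ahnak region printed above reached 77.6% at 2016 nt. Of the 35, 12 lay in Zfp genes, which encode arrays of C2H2 zinc fingers, and 11 of these had their best offset at a multiple of 84 nt. Tnc, which encodes the matrix protein tenascin C, matched itself at 61.1% at 186 nt.

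Most cluster regions could be given to 1 gene. Of the 1227 regions, 1126 lay over exons of 1 gene, 66 over exons of several genes and 35 over no annotated exon. The 1126 belonged to 981 genes, of which 108 had 2 or more regions and 21 had 3 or more. Ahnak2 had 9 regions with 97 summits summed over the lists, Ahnak 6 with 140, Fat1 5 with 70, Fat4 5 with 53 and Plec 4 with 96. Soga1 and Peak1 had 4 regions each. By position 813 regions (66.3%) lay mostly in coding sequence, 284 (23.1%) in a 3′ UTR, 17 in a 5′ UTR and 31 in an intron. A region was 729 bp long at the median, from 318 to 3654 bp.

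Clusters lay in longer exons than intervals with 1 summit. The median length of the exon that held the strongest summit was 2728, 2731, 2460 and 2610 nt, against 1838, 1842, 1816 and 1898 nt for intervals with 1 summit. The difference was 784 ± 125 nt (SD, n = 4 lists), positive in 4 of 4 lists, with an exact sign-flip p of 0.125 (two-sided), the smallest that 4 lists allow. Exons over 1000 nt held 91.9%, 95.1%, 87.2% and 90.2% of the clusters and 72.3%, 73.5%, 71.9% and 73.9% of the intervals with 1 summit. Internal exons that held a cluster had a median of 1794, 1852, 1372 and 1556 nt, against 889, 899, 872 and 944 nt. A cluster interval had a median length of 876, 1042, 697 and 726 bp, so that an exon had to be long to hold one, and a difference in this direction is partly set by the rule. In 94.8% to 96.0% of the exonic clusters all summits lay in 1 exon, and the cluster covered a median of 29.2% to 37.4% of that exon.

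Clusters lay in coding sequence more often than intervals with 1 summit, counted over all intervals, those outside exons included. The strongest summit was coding in 68.4%, 66.8%, 64.5% and 66.9% of clusters and in 45.0%, 50.5%, 43.5% and 47.9% of intervals with 1 summit. The difference was 19.9 ± 3.01 percentage points (SD, n = 4 lists, exact sign-flip p = 0.125). Among intervals in exons over 1000 nt it was 15.6 ± 1.60 points (SD, n = 4 lists). Introns held 1.51% to 2.28% of the clusters and 8.32% to 11.9% of the intervals with 1 summit. The last exon held 65.5% to 66.5% of the clusters and 63.1% to 64.8% of the others, a difference of only 2.16 ± 0.965 points (SD, n = 4 lists, exact sign-flip p = 0.125).

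The share of clusters near the stop codon was lower in a narrow window. Within 200 nt of it lay the strongest summit of 22.5%, 20.6%, 26.2% and 24.2% of the clusters, against 29.6%, 29.3%, 27.2% and 29.1% of the intervals with 1 summit. The difference was -5.40 ± 3.37 points (SD, n = 4 lists, exact sign-flip p = 0.125), and it was smallest, at -0.931 points, in shMettl14 A. Within 400 nt it was -4.39 ± 5.49 points and negative in 3 of 4 lists (exact sign-flip p = 0.375). More than 200 nt upstream of the stop codon lay 57.2% to 64.6% of the clusters and 51.7% to 54.3% of the others. The strongest summit of a cluster was not tied to one end. It was the most 3′ of its cluster in 37.0%, 37.6%, 26.8% and 28.8% of cases, and the most 5′ in 25.2%, 25.7%, 20.1% and 24.5%.

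**Figure D5:**
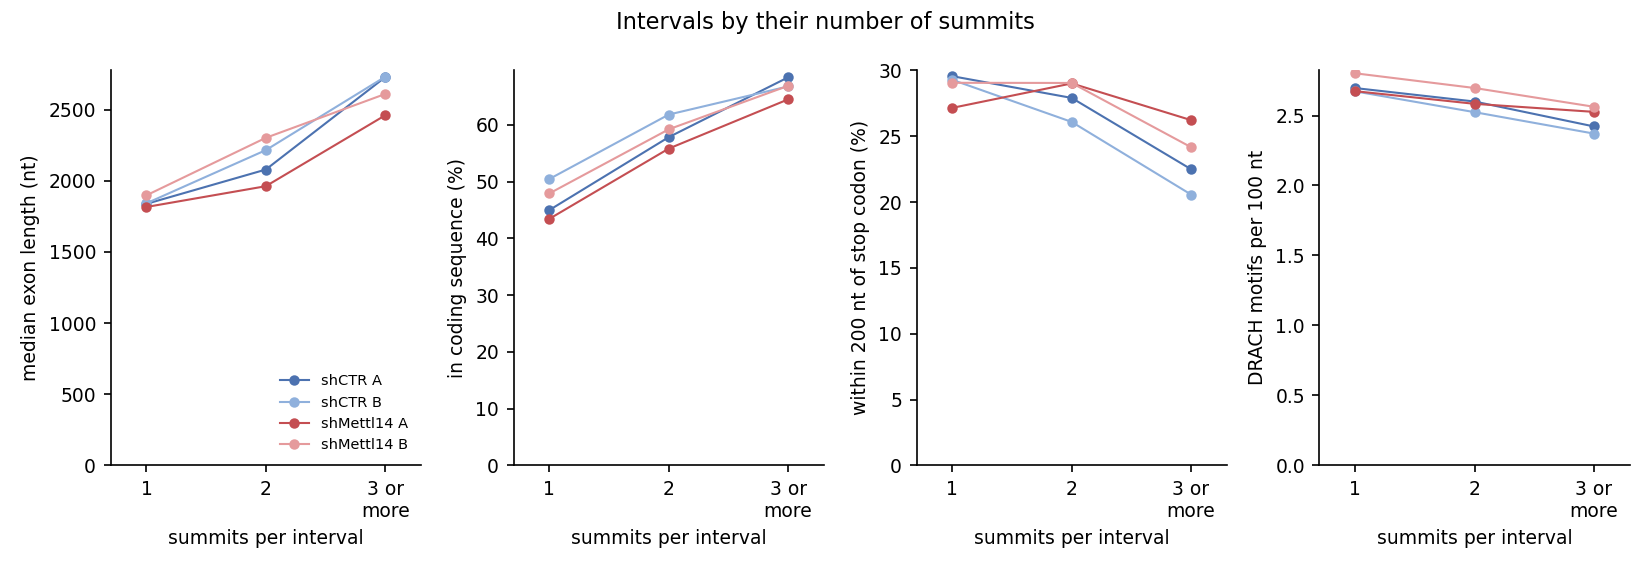
Median exon length (nt), share in coding sequence (%), share within 200 nt of the stop codon (%) and DRACH motifs per 100 nt for intervals with 1, 2 and 3 or more summits, one line per list. Exon length and coding share were higher, and DRACH density lower, at 3 or more summits than at 1 in each of the 4 lists.

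The motif was not denser in clusters. On the transcript strand DRACH occurred 2.42, 2.37, 2.53 and 2.56 times per 100 nt in clusters and 2.70, 2.67, 2.67 and 2.80 times in intervals with 1 summit, a difference of -0.241 ± 0.0670 (SD, n = 4 lists, exact sign-flip p = 0.125). GGACT, which is one form of DRACH and is counted within it, occurred 0.165, 0.168, 0.164 and 0.178 times per 100 nt against 0.227, 0.225, 0.223 and 0.242. A cluster is longer and reaches further from its summits, and the part of length in this difference was not tested. Within 50 bp of the summit, GGACT was present for 18.0%, 20.7%, 15.8% and 18.0% of the exonic summits of clusters and 23.7%, 24.3%, 21.5% and 23.1% of single summits, a difference of -5.02 ± 0.965 points (SD, n = 4 lists, exact sign-flip p = 0.125). It was present for 24.4%, 26.5%, 19.8% and 20.7% of the strongest summits of a cluster and for 15.4%, 18.3%, 14.3% and 16.9% of the other summits. The strongest summits thus lay above single summits in both shCTR lists and below them in both shMettl14 lists. DRACH in any form lay within 50 bp of 93.4% to 94.5% of the summits of clusters and 95.6% to 96.5% of single summits.

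Clusters were also the more deeply covered intervals. The median pileup at the strongest summit was 36, 41, 30 and 28 fragments in clusters and 13, 14, 10 and 11 in intervals with 1 summit, and the weakest summit of a cluster had a median of 15, 16, 13 and 13. Coverage depends on transcript abundance as well as on m6A, and its part in the number of summits was not tested. The study states a depth per sample, and the totals that each list rests on were not analysed here. Pileups carry counting error only.

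Genes outside the fullest regions were described by gene lists. Over all genes, 981 of the 5542 with a summit in an exon (17.7%) had a cluster region. In a list of chromatin regulators that also held the RNA-binding Prrc2 proteins it was 24 of 46, Prrc2a and Prrc2c among them, with Arid1a and Arid1b, subunits of the BAF remodelling complex, at 4, 4, 6 and 4 summits and 4, 3, 3 and 5 summits. Among signalling and immediate early genes it was 14 of 26, with Ier5 at 4, 3, 6 and 5 summits and Socs5, a suppressor of cytokine signalling, at 5, 3, 6 and 4. The lists were written with results of these data known, so the shares are descriptions, and exon length was not matched between them.

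The m6A machinery was itself among the targets. Of its 12 genes with an exonic summit, 6 had a cluster region, against 17.7% over all genes, in a list written with these data known. Rbm15, which guides the writer complex to its targets, had 5, 3, 6 and 5 summits in the fuller of its regions in exon 1, and its relative Rbm15b had 3, 3, 6 and 4. The readers Ythdf1 and Ythdf3 had 3, 3, 6 and 4 and 4, 4, 4 and 4 summits in exon 5, which holds most of their coding sequence. Zc3h13 and Ythdf2 also had a region. No summit lay in an exon of Mettl14 itself in any list, and a peak list does not measure its transcript, so the knockdown could not be checked.

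Of the smooth muscle genes, 4 of the 8 with an exonic summit had a cluster region, against 17.7% over all genes. Cald1, which encodes the actin-binding protein caldesmon, had 3 summits in each of the 4 lists in exon 5. Lmod1, the smooth muscle leiomodin, had 2, 2, 3 and 2 in a region of exon 2, and Tns1, which encodes the adhesion protein tensin, had 2, 2, 3 and 3 in a region of its last exon. Of 9 markers of smooth muscle only Lmod1 and Myh11 had a summit, and Acta2, Tagln and Cnn1 had none in any list. Of 6 endothelial markers 3 had one, among them the endothelial cadherin Cdh5 with 3, 4, 7 and 4 summits and a cluster region, and of 5 macrophage markers none did. A peak needs both the transcript and the mark, so these counts do not measure the cell types present, whose part in the clusters was not tested.

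A list of atypical cadherins and protocadherins had a cluster region in 9 of 41 genes, near the share over all genes. Most of the 9 were protocadherins, among them Pcdhga4 with 3, 3, 4 and 3 summits, and Fat4 had 4, 3, 5 and 4 in its first exon. C2H2 zinc finger genes had a cluster region in 46 of 264 (17.4%), and their values stayed small, as in Zfp646 with 3, 2, 5 and 4. In a list of matrix and elastic fibre genes, which did not hold Fbln2 (described below), 4 of 29 had a cluster region. These were Tnc with 4, 3, 5 and 5 summits, Col8a1 with 3, 2, 5 and 3, Thbs1 with 3, 2, 5 and 1 and Hspg2 with 3, 3, 2 and 2.

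The study picked the genes it describes on these same samples, for lower expression and m6A after Mettl14 knockdown, so their values are a description. Among these 9 genes, 3 had a cluster region, against 17.7% of all genes with an exonic summit. Klf4, a transcription factor of VSMC phenotypic switching (ENSMUSG00000003032.8), had 2. The first, in its last exon (chr4:55527621-55528316), ran across the stop codon and had 2, 2, 4 and 3 summits, of which 1, 1, 2 and 3 lay in the 3′ UTR. The second (chr4:55529783-55530830) had 3, 2, 4 and 1, all in coding sequence but 1 of shMettl14 A in an intron, so that the shMettl14 lists lay above the shCTR lists in the first and on either side of them in the second. The highest fold enrichment of the first region, found at a 3′ UTR summit in each list, ran the other way. It was 14.1, 14.6, 11.5 and 10.7, at the 87.4, 87.6, 82.7 and 71.3 percentile, so both shMettl14 lists lay below both shCTR lists. The pileups there were 48, 40, 34 and 24 fragments, but the median pileup of clusters was also lower in both shMettl14 lists, as given above. In the second Klf4 region the highest fold enrichment was 8.26, 9.63, 8.19 and 7.62, with little between the A lists. As percentiles of the list these values were 54.2, 64.8, 58.7 and 44.5, so shMettl14 A ranked above shCTR A. In the rank comparison by limma described below, the differences were -0.50 ± 0.49 (SE, adjusted p = 0.999) and -0.23 ± 0.50 (SE, adjusted p = 0.999). Fbln2, which encodes the matrix protein fibulin 2 (ENSMUSG00000064080.12), had 4, 3, 5 and 4 summits in exon 2 (chr6:91233030-91234305) and 2, 2, 3 and 3 across the stop codon in its last exon, of which 1, 1, 2 and 2 lay in the 3′ UTR. Pdgfrb, the receptor of PDGF-BB, had 3, 1, 2 and 2 summits in one region of its 3′ UTR and 2, 3, 2 and 2 in another. None of these regions had 3 or more summits in an interval of each list.

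To find clusters of one hairpin only, regions with 3 or more summits in an interval of both lists of a hairpin and at most 1 summit of each list of the other within the region were counted. In the direction of shCTR there was 1 (0.0088% of the 11361 regions) and in the direction of shMettl14 there were 14 (0.123%). These members were chosen by the values that set them apart, so their counts are a description. With summits at least 150 bp apart there were 1 and 5, and with summits at least 200 bp apart 0 and 0. The single shCTR region lay in the coding sequence of Camsap1, which encodes a protein of microtubule minus ends (ENSMUSG00000026933.17, chr2:25939475-25940090), with 3, 3, 1 and 1 summits. The highest fold enrichment there was 8.14, 7.49, 7.99 and 9.33, without a difference in level to match the counts.

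Zbtb38, a zinc finger protein that binds methylated DNA (ENSMUSG00000040433.16, chr9:96687152-96687896, coding), led the 14 with 1, 1, 5 and 3 summits. Phf23 (ENSMUSG00000018572.10, chr11:69998572-69999096) and Tanc1 (ENSMUSG00000035168.16, chr2:59843495-59844074) followed with 1, 1, 4 and 3 each, and the other 11 had 1, 1, 3 and 3. Among these were Mrtfb, a coactivator of serum response factor, Hspa5, the main chaperone of the endoplasmic reticulum, and Dusp10, a MAP kinase phosphatase. In Phf23 the highest fold enrichment was 16.1, 21.9, 14.2 and 19.5, so the added summits stood beside an enrichment that the shCTR lists also showed.

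Wider by 1 step, 119 of the 1227 regions had 3 or more summits in both shMettl14 lists and in neither shCTR list. In the other direction, 10 of the 1227 had them in both shCTR lists and in neither shMettl14 list. With summits at least 150 bp apart the numbers were 66 and 15 of 897 regions, and at 200 bp they were 19 and 22. Over all 1227 regions there were 2.51, 2.01, 3.61 and 2.46 summits per region. The difference of the group means was 0.769. Since a region entered through any list in which it reached 3 summits, and most often through shMettl14 A alone, these values describe the choice as well as the lists. With shMettl14 A left out of the choice and the means the difference was 0.293, and with shMettl14 B left out it was 1.37.

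The highest fold enrichment of the clusters was also compared. It was taken over all summits of a region, so a list with more summits drew on more values. Among the 4929 regions of the series with a peak in every list, ranks of the highest fold enrichment within a list were converted to normal scores, and the hairpins were compared with limma. Of all regions 0 had an adjusted p under 0.05 (0%), and 243 (4.93%) had an unadjusted p under 0.05. Of the 1198 regions that held a cluster, 0 had an adjusted p under 0.05 (smallest 0.796), and 28 (2.34%) had an unadjusted p under 0.05, of which 15 were higher and 13 lower in shMettl14. This share was below that of all regions. The median difference was 0.05 for regions with a cluster and 0.00 for all regions, in units of the normal score.

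For the 11 fullest regions the limma differences ran from -0.55 ± 0.50 (SE) in Tnrc6c to 0.36 ± 0.52 (SE) in Arid5b, with unadjusted p-values of 0.284 and 0.492 and adjusted p-values of 0.999. The regions chosen for their summit counts under one hairpin are given as a description only. Of the 14 on the shMettl14 side, 8 had a difference above 0 and 6 below it, from 0.73 ± 0.52 (SE) in Zbtb38 to -1.02 ± 0.51 (SE) in Mrtfb. In Mrtfb the highest fold enrichment was 16.5, 23.2, 12.2 and 12.1, lower in the lists with more summits, and Fnip2 was next at -0.85 ± 0.49 (SE). For Camsap1 the difference was 0.27 ± 0.50 (SE). Ranks cannot show a loss of m6A that all sites share.

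The deposited overlap files, which list intervals found in both replicates of a hairpin and give no summits, held nearly all of the clusters. Of the 1227 regions 1186 overlapped an interval of both files, 20 only one of the shCTR file, 9 only one of the shMettl14 file and 12 neither.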

How the data were processed

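Peaks were called by the authors with MACS2 in each IP sample against its input, on reads aligned to mm10 with STAR and kept by SAMtools if uniquely mapped; versions and options were not given in the sources used here. The deposited lists give per summit an interval, a fold enrichment (a ratio) and −log10 p and q, and the 2 overlap files give intervals only. The cluster rule, gene lists and named gene rule were set with earlier results of these data known. Named genes were the 10 fullest regions over 1 gene with 3 or more summits in every list (11 with a tie), the fullest interval per list, up to 5 regions specific to a hairpin (14 tied), the study's genes and examples of each list.

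IP pileups at summits were recovered as whole numbers from the deposited fold enrichment and −log10 p in 100% of summits (error under 0.001). The study states a read depth per sample. Totals per list were not analysed here, and pileups carry counting error. Summits were placed with GENCODE M21 on the transcript with the longest coding sequence, and sequence was read from GRCm38, to which mm10 corresponds. Lists were compared by exact permutation, clusters with intervals of 1 summit by exact sign flips over the lists, and region ranks by limma 3.58.1 (R 4.3.3, two-sided, Benjamini-Hochberg, threshold 0.05, no replicate block), tested on simulated data. Python 3.11.15, pandas 2.3.3 and pysam 0.24.0 were used. Alternatives were equal list sizes, stricter summits, thinning, other windows and transcripts, and leaving out each list.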

Additional observations from a re-analysis of the deposited data

How the results depend on the processing

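Of 135 values under alternatives, 1 reversed. The exact tests over lists cannot reach a p of 0.05 under any setting, so they bear on size and direction only. The ratio of clusters fell from 1.91 to 1.05 with summits at least 200 bp apart and to 1.11 without shMettl14 replicate A. The share of summits in clusters turned to -0.0255 points with summits at least 200 bp apart, where 91 regions were clusters in all 4 lists. That number was 33 with 4 or more summits and ranged from 142 to 253 when a list was left out, the highest without shCTR replicate B. Agreement of summits was 84.7% within 100 bp and 47.0% within 25 bp. In the rank test, leaving out a list gave 0 to 1 cluster regions at an adjusted p under 0.05 and 13 to 30 at an unadjusted p under 0.05, against 0 to 3 and 243 to 368 of all regions. The 1 region, among 3 of 5101 called without shMettl14 replicate A, lay over Htr1b and D430036J16Rik (difference -3.00, adjusted p = 0.0243), and there the lone shMettl14 list was assumed to vary like the others. With the letters as a replicate block, 0 regions were called (37 at an unadjusted p under 0.05, and 292 of all 4929), the ratio of clusters was 1.85 and the other differences were 9.46 points, 0.769 summits and -79 bp. No source states what a letter marks, and the deviations of the A lists correlated at 0.08 over regions, so the letters were not used as pairs. The A lists nevertheless had more clusters and closer summits than the B lists under both hairpins. The block changed no call. The part of low pileups in the number of summits was not tested.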
